A study of Mus musculus with 21 samples.

Results

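ETS factors are transcription factors that share a DNA-binding domain reading a GGAA core, and 10 of them that are known from blood and endothelium are described here. The genes were chosen by symbol: Ets1, Ets2, Etv2, Etv4, Etv5, Etv6, Fli1, Erg, Elk3 and Spi1. All 10 were found as 1 row each among the 27968 genes of the sorted-cell table and the 22899 genes of the coculture table. The other 17 ETS genes found in both tables were used for comparison. RNA-seq was available for 21 libraries in 7 groups of 3. Of these, 6 were total cells on day 5, grown from hematopoietic-like colonies of 129/ola mouse pluripotent stem cells. The cells had first been induced in a 3D self-assembling peptide and were then seeded on OP9 stromal cells (3D+OP9) or on 0.1% gelatin (3D+0.1% gelatin). The other 15 were 129/ola mESC sorted with SSEA-1, D5-LSKCD201+ and D5-LSKCD201- cells sorted on day 5 from 3D+OP9, and LSKCD201+ cells of C57BL/6 mice from the bone marrow at 6 to 8 weeks (BM-LSKCD201+) or the fetal liver at E12.5 (FL-LSKCD201+).

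LSK stands for lineage-negative, Sca-1+ and c-kit+ cells, and CD201 is the endothelial protein C receptor, encoded by Procr. The OP9 coculture medium held SCF, IL-3 and Flt3 ligand, and the OP9 cells had been treated with mitomycin C. The labels do not say whether OP9 cells were removed from the total cells of 3D+OP9. Cells made in culture and cells taken from mice also differ in strain, so that origin and strain cannot be told apart in these comparisons. Procr ranged from 57.9 to 61.9 FPKM in D5-LSKCD201+ but from 3.02 to 3.82 in D5-LSKCD201-, as the sort requires, and at 66.6 or more in every FL-LSKCD201+ and BM-LSKCD201+ library. Levels are FPKM, reads scaled to transcript length and library size, so that levels of different genes can be set side by side.

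In the embryo, ETV2 is required for the blood and endothelial lineages and is expressed for a short time in their common precursors. FLI1 and ERG take over many of its endothelial and hematopoietic targets, and in blood stem cells they bind with GATA2, RUNX1, SCL (Tal1), LYL1 and LMO2. PU.1, encoded by Spi1, drives myeloid and B lymphoid development, ETV6 maintains adult hematopoietic stem cells, ETV4 and ETV5 respond to FGF and ERK signaling, and ELK3 and ETS1 are known from vessel growth.

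Read depth is unknown, as FPKM are the only values given. FPKM summed to 483263 to 508307 per coculture library and 508622 to 620332 per sorted-cell library. Replicate 3 of 3D+OP9, replicate 2 of D5-LSKCD201- and replicate 1 of FL-LSKCD201+ and of BM-LSKCD201+ stood apart from the closer pair in their group. Results that rest on one of them are given with and without it. Each comparison was tested with limma on log2(FPKM + 1) (two-sided, Benjamini-Hochberg adjustment), over the genes whose mean reached 0.5 FPKM in the libraries compared. A gene with a mean under 0.5 FPKM in either group could pass this filter only by being higher in the other, which fixed its direction. This holds for the ETS genes and for the gene lists. To be called, a gene had to pass 2 thresholds, an adjusted p below 0.05 and a log2 fold change of 1 or more in either direction. The study calls the replicates of the sorted cells biological, and the labels do not say that any came from separate cultures or animals, so p-values measure the spread between these libraries. A single gene tested alone by exact permutation of 3 against 3 libraries could not reach a p below 0.1.

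Of the 10 genes, 4 form neighbouring pairs in the mouse genome (GRCm38, GENCODE M21). Fli1 (ENSMUSG00000016087, chr9:32422204-32542861, minus strand) and Ets1 (ENSMUSG00000032035, chr9:32636221-32757820, plus strand) lie 93.4 kb apart on chromosome 9. Erg (ENSMUSG00000040732, chr16:95359169-95586593, minus strand) and Ets2 (ENSMUSG00000022895, chr16:95702075-95721051, plus strand) lie 115 kb apart on chromosome 16. In both pairs the genes point away from each other, with 0 annotated protein-coding genes between them. The remaining genes are Etv2 (ENSMUSG00000006311, chr7:30633616-30635852, minus strand), Etv4 (ENSMUSG00000017724, chr11:101769742-101785371, minus), Etv5 (ENSMUSG00000013089, chr16:22381309-22439719, minus), Etv6 (ENSMUSG00000030199, chr6:134035700-134270158, plus), Elk3 (ENSMUSG00000008398, chr10:93247414-93311135, minus) and Spi1 (ENSMUSG00000002111, chr2:91082390-91115756, plus). The row of Elk3 in the deposited sorted-cell table gives a longer locus, chr10:93160875-93311135, while those of the other 9 genes equal the annotation. Exons of Elk3 overlap exons of Cdk17 on the opposite strand, and whether counting used the strand is not given in the sources used here. Reads of both genes may therefore have been shared. The mean of Cdk17 was 16.8 ± 0.934 FPKM (SD, n = 3) for mESC, 10.1 ± 4.91 for D5-LSKCD201-, 20.1 ± 5.50 for D5-LSKCD201+, and 38.7 ± 2.83 and 39.7 ± 1.83 in FL-LSKCD201+ and BM-LSKCD201+. In the coculture groups it was 11.8 ± 0.937 in 3D+OP9 and 12.8 ± 0.557 in 3D+0.1% gelatin.

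RefSeq promoter windows (GRCm38.p6) were found for 6 of the 10 genes, at 9 start sites: Etv2, Elk3, Erg, Etv5, Etv6 and Ets2. The 250 bases before each start were searched on both strands for the ETS letters AGGAAG and CCGGAAG and the GATA letters AGATAA, which do not overlap one another in any match found. AGGAAG was in 29.5%, CCGGAAG in 6.91% and AGATAA in 9.99% of all 32851 promoter windows of that length. Among the 9 windows, 3 held a match and are shown for it. All 3 held AGGAAG, which is near its share of 29.5% in all windows. No match was found in the windows of Ets2, which also rose in D5-LSKCD201+, of Etv5 and Etv6, and at the other 2 starts of Erg. The windows shown are the windows of Etv2 (chr7:30635853-30636102), Elk3 (chr10:93311160-93311409) and an internal start of Erg (chr16:95459349-95459598), each written on its gene's minus strand with matches in capitals.
Etv2: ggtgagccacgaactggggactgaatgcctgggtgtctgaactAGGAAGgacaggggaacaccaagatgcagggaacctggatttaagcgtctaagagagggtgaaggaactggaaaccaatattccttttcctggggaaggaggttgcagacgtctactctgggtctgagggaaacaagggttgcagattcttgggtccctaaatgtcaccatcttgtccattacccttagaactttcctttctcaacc
Elk3: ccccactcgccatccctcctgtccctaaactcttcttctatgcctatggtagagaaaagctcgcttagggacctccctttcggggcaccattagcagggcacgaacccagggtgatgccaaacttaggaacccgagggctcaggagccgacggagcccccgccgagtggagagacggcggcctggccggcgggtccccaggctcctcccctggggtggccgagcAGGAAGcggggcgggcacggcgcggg
Erg: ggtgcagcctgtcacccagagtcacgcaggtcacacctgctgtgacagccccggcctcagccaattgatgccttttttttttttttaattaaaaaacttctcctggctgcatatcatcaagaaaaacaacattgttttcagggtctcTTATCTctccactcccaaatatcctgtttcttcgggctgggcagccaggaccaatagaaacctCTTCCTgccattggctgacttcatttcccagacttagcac
AGGAAG began 207 bases before the start in Etv2 and 26 bases before it in Elk3. In Erg the reverse letters TTATCT and CTTCCT began 103 and 40 bases before the internal start. The match of letters is a description of the sequence and no binding was measured.

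In the sorted cells the ETS genes fell into 4 patterns. Ets1, Ets2, Elk3 and Etv2 peaked in D5-LSKCD201+, and Spi1 and Etv6 were highest in the cells taken from mice. Fli1 and Erg differed by less than the fold threshold among the 3 groups of LSKCD201+ cells. For both genes D5-LSKCD201+ still lay apart from the cells from mice, higher for Fli1 and lower for Erg. Etv4 and Etv5 went the other way and were highest in mESC. D5-LSKCD201+ differed from D5-LSKCD201- in 8 of the 10 genes, 7 higher and 1 lower, while 24.7% of the 13691 genes tested were called, 10.8% higher and 13.9% lower. The median log2 fold change was 2.83 for the 10 genes and -0.12 for all genes tested.

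**Figure D1:**
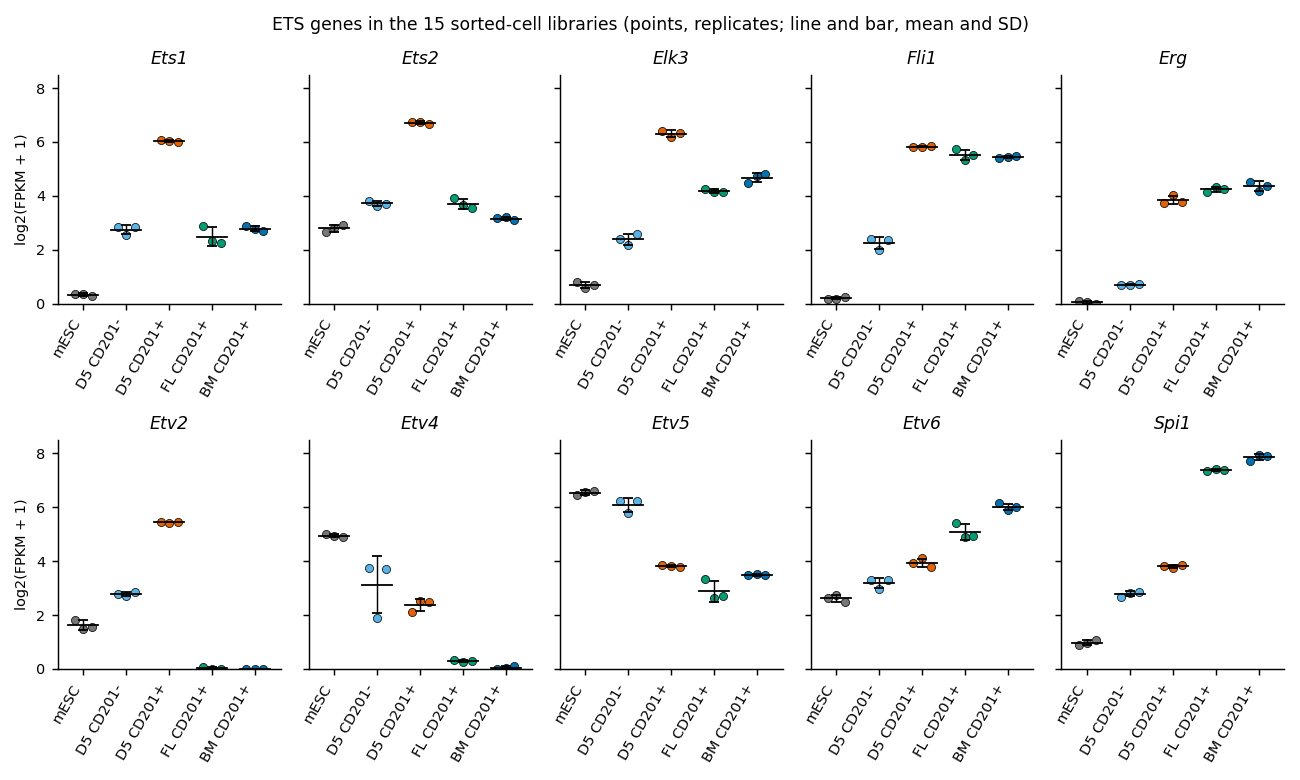
Levels of the 10 ETS genes in the 15 sorted-cell libraries, as log2(FPKM + 1) on the vertical axis, with 1 panel per gene and the groups along the horizontal axis. Points are replicates, and the line and bar are the mean and SD of 3. Ets1, Ets2, Elk3 and Etv2 have their highest points in D5-LSKCD201+, Spi1 and Etv6 in BM-LSKCD201+, and Etv4 and Etv5 in mESC.

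Etv2, the early and transient factor of the blood and endothelial precursor, was at 43.2, 42.2 and 42.8 FPKM in the 3 libraries of D5-LSKCD201+. In D5-LSKCD201- it was at 5.96, 5.50 and 6.18 FPKM, and in mESC at 2.55, 1.83 and 1.91. All 3 libraries of BM-LSKCD201+ were listed at 0, as were 2 of 3 of FL-LSKCD201+, with 0.0543 FPKM in the remaining library. The groups did not overlap between D5-LSKCD201+, D5-LSKCD201- and mESC. Against D5-LSKCD201-, mean FPKM was 7.27-fold higher in D5-LSKCD201+ (log2 fold change 2.67, SE 0.07, adjusted p 1.6e-07). Etv2 also passed the test against FL-LSKCD201+ and BM-LSKCD201+ (adjusted p 2.7e-08 and 1.8e-09), where no fold is given because of the listed zeros. It passed the filter there only through D5-LSKCD201+, so the direction of these 2 tests was fixed.

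Ets1, a factor of vessel growth and lymphocytes, was at 66.8, 64.2 and 63.1 FPKM in D5-LSKCD201+. Its levels in D5-LSKCD201- (6.16, 4.82 and 6.27), FL-LSKCD201+ (6.45, 4.06 and 3.72) and BM-LSKCD201+ (6.33, 5.87 and 5.50) overlapped one another. In mESC Ets1 was at 0.226 to 0.287 FPKM. By mean FPKM, D5-LSKCD201+ was 242-fold above mESC, 11.3-fold above D5-LSKCD201-, 13.6-fold above FL-LSKCD201+ and 11.0-fold above BM-LSKCD201+. The log2 fold changes against the last 3 were 3.29 (SE 0.10, adjusted p 3.0e-07), 3.55 (SE 0.17, adjusted p 2.8e-06) and 3.25 (SE 0.06, adjusted p 8.7e-09).

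Ets2, its paralog and a known target of ERK phosphorylation, had the highest level of the 10 genes in D5-LSKCD201+, at 105, 107 and 101 FPKM. D5-LSKCD201- (13.0, 11.4 and 12.1) and FL-LSKCD201+ (14.0, 11.7 and 10.7) overlapped, BM-LSKCD201+ was lower at 8.02, 8.25 and 7.51, and mESC was at 5.37 to 6.52. Ets2 rose by 3.00 against D5-LSKCD201- (SE 0.06, adjusted p 8.3e-08), by 3.01 against FL-LSKCD201+ (SE 0.10, adjusted p 5.8e-07) and by 3.56 against BM-LSKCD201+ (SE 0.05, adjusted p 3.5e-09), on the log2 scale.

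Elk3, which encodes a ternary complex factor of endothelial cells, was at 84.5, 70.9 and 79.6 FPKM in D5-LSKCD201+, against 4.31, 3.50 and 4.93 for the CD201- cells. FL-LSKCD201+ had 18.3, 16.8 and 16.6 FPKM and BM-LSKCD201+ 21.5, 25.4 and 27.3, and no groups overlapped. Between the day 5 populations Elk3 changed by 3.92 (SE 0.12, adjusted p 3.1e-07), the largest of the 10 on the log2(FPKM + 1) scale, while by mean FPKM its 18.4-fold difference was below the 21.0-fold of Erg. Against FL-LSKCD201+ and BM-LSKCD201+ it was higher by 2.12 (SE 0.09, adjusted p 1.4e-06) and 1.63 (SE 0.10, adjusted p 2.9e-06).

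Fli1, which sustains endothelial and megakaryocyte genes, was at 55.0, 55.8 and 56.9 FPKM in D5-LSKCD201+, 51.9, 39.6 and 44.7 in FL-LSKCD201+ and 41.5, 42.7 and 43.1 in BM-LSKCD201+. D5-LSKCD201- had 4.28, 2.97 and 4.19 FPKM and mESC 0.122 to 0.177. The level in D5-LSKCD201+ was 14.7-fold that of D5-LSKCD201- (log2 fold change 3.57, SE 0.12, adjusted p 4.5e-07). It was 1.23-fold that of FL-LSKCD201+ and 1.32-fold that of BM-LSKCD201+, with log2 fold changes of 0.30 (SE 0.10, adjusted p 0.0350) and 0.39 (SE 0.04, adjusted p 9.0e-05) that did not reach the fold threshold. The summed level of 6 megakaryocyte markers was 52.9 to 55.0 FPKM in D5-LSKCD201+ against 5.83 to 6.74 in D5-LSKCD201-. Of 4 tested, 3 were called higher, beside 10.8% of all genes. The sum was 190 to 254 in FL-LSKCD201+ and 333 to 342 in BM-LSKCD201+. Itga2b, with a mean of 45.2 FPKM, made up most of the sum in D5-LSKCD201+. Against the sums, it was higher there than in FL-LSKCD201+ and BM-LSKCD201+, by 2.28 and 1.88 on the log2 scale. Gp9 and Ppbp had lower means in D5-LSKCD201+ than in D5-LSKCD201-. Itga2b, Gp9 and Ppbp were named after their values were seen. The part of these markers in the result was not tested.

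Erg, which is needed for adult stem cell maintenance and for endothelial identity, was at 12.3, 15.3 and 12.6 FPKM in D5-LSKCD201+. FL-LSKCD201+ had 16.8, 19.1 and 18.2 FPKM and overlapped BM-LSKCD201+ with 22.1, 17.1 and 19.6. In D5-LSKCD201- the gene was at 0.613 to 0.679 FPKM, 21.0-fold below D5-LSKCD201+ (log2 fold change 3.13, SE 0.11, adjusted p 5.9e-07). Against the cells from mice the difference was -0.41 (SE 0.10, adjusted p 0.0104) for FL-LSKCD201+ and -0.52 (SE 0.12, adjusted p 0.00403) for BM-LSKCD201+, both short of the fold threshold.

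Spi1 stood lowest in the cultured cells. The 3 libraries of D5-LSKCD201+ had 13.1, 12.3 and 13.5 FPKM, with 5.39, 6.13 and 6.18 for D5-LSKCD201-, against 163, 169 and 166 in FL-LSKCD201+ and 210, 242 and 241 in BM-LSKCD201+. No groups overlapped in this order. Mean FPKM was 12.8-fold higher in FL-LSKCD201+ and 17.8-fold higher in BM-LSKCD201+ than in D5-LSKCD201+ (log2 fold changes of D5-LSKCD201+ -3.58, SE 0.07, adjusted p 5.5e-08, and -4.05, SE 0.07, adjusted p 5.4e-09). D5-LSKCD201+ was higher than D5-LSKCD201- by 1.02 (SE 0.09, adjusted p 4.0e-05), close to the fold threshold. Without replicate 3 of D5-LSKCD201+ or replicate 1 of D5-LSKCD201- the value was 0.99 or 0.96 and the call was lost.

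Etv6, a repressor that adult hematopoietic stem cells need, increased in the same order of groups as Spi1, with smaller steps. Its levels were 14.1, 16.2 and 12.8 FPKM for D5-LSKCD201+, 8.98, 6.82 and 8.84 for D5-LSKCD201-, 41.8, 28.9 and 29.5 in FL-LSKCD201+ and 69.6, 59.3 and 63.1 in BM-LSKCD201+. Between the day 5 populations Etv6 differed by 0.74 (SE 0.13, adjusted p 0.00181), short of the fold threshold. It was lower in D5-LSKCD201+ than in FL-LSKCD201+ by -1.15 on the log2 scale (SE 0.16, adjusted p 5.8e-04) and than in BM-LSKCD201+ by -2.08 (SE 0.10, adjusted p 6.2e-07). Without replicate 1 of FL-LSKCD201+ the former was -0.98 and no longer called.

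Etv5, an FGF-responsive factor of pluripotent and epithelial cells, was at 85.9, 93.8 and 97.0 FPKM in mESC, with 73.3, 53.8 and 74.4 among the CD201- cells. D5-LSKCD201+ had 13.6, 13.1 and 12.7, with 9.06, 5.21 and 5.48 in FL-LSKCD201+ and 10.2, 10.5 and 10.1 in BM-LSKCD201+. Etv5 was the gene of the 10 that was called lower in the CD201+ than the CD201- cells of day 5, at 5.11-fold less (log2 fold change -2.25, SE 0.13, adjusted p 5.1e-06). Against FL-LSKCD201+ it was 0.93 higher (SE 0.19, adjusted p 0.00331), and 1.16 higher and called without replicate 1 of FL-LSKCD201+.

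Etv4, its close paralog, was at 31.3, 29.2 and 29.0 FPKM in mESC, 12.3, 2.72 and 12.2 among the CD201- cells, and 3.33, 4.67 and 4.59 for D5-LSKCD201+. Replicate 2 of D5-LSKCD201- lay below all libraries of D5-LSKCD201+ and the other two above them. The difference of -0.75 (SE 0.48, adjusted p 0.203) did not pass the test, and without that library it was -1.36 (adjusted p 4.6e-05) and called. FL-LSKCD201+ had 0.185 to 0.244 FPKM and BM-LSKCD201+ 0 to 0.0846, so that D5-LSKCD201+ was higher than both by 2.08 (SE 0.12, adjusted p 7.5e-06) and 2.32 (SE 0.13, adjusted p 1.4e-06). Etv4 passed the filter there only through D5-LSKCD201+, which fixed the direction.

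The group means of Etv4, Etv5 and the summed pluripotency markers fell in the same order, from mESC to D5-LSKCD201- to D5-LSKCD201+. In replicate 2 of D5-LSKCD201-, however, Etv4 was at 2.72 FPKM, below all libraries of D5-LSKCD201+, while the marker sum was 3749. The summed level of 8 such markers was 6835 to 7400 FPKM in mESC, 3749 to 4247 for D5-LSKCD201-, but 24.5 to 32.8 for D5-LSKCD201+, and all 8 were detected among the CD201- cells. Between the day 5 populations, 6 erythroid markers summed to 30.5 to 50.1 FPKM in D5-LSKCD201+ against 49.2 to 120 in D5-LSKCD201-. Of 5 tested, 1 was called higher and 3 lower, beside 10.8% and 13.9% of all genes. The sum of 5 hepatoblast markers was 0.683 to 0.918 against 4.90 to 7.93 FPKM, with 2 of 2 tested called lower. Those 2 were under 0.5 FPKM in D5-LSKCD201+, so the filter fixed their direction. The part of these markers in the result was not tested. In a sorted population, fewer cells that express a gene and less RNA per cell cannot be told apart.

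Compared with mESC, all 10 genes were called in D5-LSKCD201+, 8 higher and 2 lower (Etv4 and Etv5), while 37.6% of the 13441 genes tested were called, 19.5% higher and 18.1% lower. Ets1 (5.70, SE 0.06), Fli1 (5.63, SE 0.06) and Elk3 (5.61, SE 0.09) had the largest changes on the log2(FPKM + 1) scale, with adjusted p of 9.4e-12, 9.9e-12 and 5.7e-11. By mean FPKM their order was Fli1 (385-fold), Ets1 (242-fold) and Elk3 (125-fold), and no fold is given for Erg, which was at 0 to 0.0704 FPKM in mESC. Ets1, Fli1 and Erg were under 0.5 FPKM in mESC and passed the filter only through D5-LSKCD201+, which fixed their direction. Without the filter, 10 were called as well. D5-LSKCD201- differed from mESC in 6 of the 9 genes tested, 5 higher and 1 lower, against a background of 14.3% called, 10.9% higher and 3.48% lower. Ets1 (2.41), Fli1 (2.06), Spi1 (1.81), Elk3 (1.68) and Etv2 (1.16) were higher and Etv4 (-1.83) was lower, with adjusted p between 4.7e-06 and 0.0124. For Ets1 and Fli1 the filter fixed the direction here too. Etv2 was at 0.97 and no longer called after quantile normalization. Erg was not tested, because its mean over the 6 libraries was under 0.5 FPKM. Both comparisons use the same mESC libraries.

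D5-LSKCD201+ and the LSKCD201+ cells from mice differed in the same 7 genes at both sources. Against FL-LSKCD201+, 5 were higher and 2 lower, while 34.7% of the 13627 genes tested were called, 15.1% higher and 19.6% lower. Against BM-LSKCD201+, 5 were also higher and 2 lower, while 44.7% of 13775 were called, 17.5% higher and 27.2% lower. Ets1, Ets2, Etv2, Etv4 and Elk3 were the 5 that were higher, and Etv6 and Spi1 the 2 that were lower. Etv2 and Etv4 were under 0.5 FPKM in both groups from mice and passed the filter only through D5-LSKCD201+. Their direction was therefore fixed before the test, and the counts of 5 include them. These comparisons share the libraries of D5-LSKCD201+. Stromal markers moved with them: the summed level of 10 was 94.6 to 100 FPKM in D5-LSKCD201+, which were sorted from the OP9 coculture, against 12.4 to 15.4 in FL-LSKCD201+ and 7.06 to 7.89 in BM-LSKCD201+, where Lum was at 0 in all 3 libraries. Of 8 tested, 6 and 7 were called higher. In D5-LSKCD201- the stromal sum was 39.5 to 73.8 FPKM. The sum of 5 hepatoblast markers was 0.683 to 0.918 FPKM in D5-LSKCD201+, 339 to 513 in FL-LSKCD201+ and 6.08 to 9.78 in BM-LSKCD201+. In the same order, 6 erythroid markers summed to 30.5 to 50.1, 327 to 385 and 4.43 to 13.1 FPKM. For 6 mast cell markers the sums were 2.02 to 2.25, 41.2 to 61.9 and 3.45 to 3.82 FPKM. The part of these markers in the result was not tested.

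**Figure D2:**
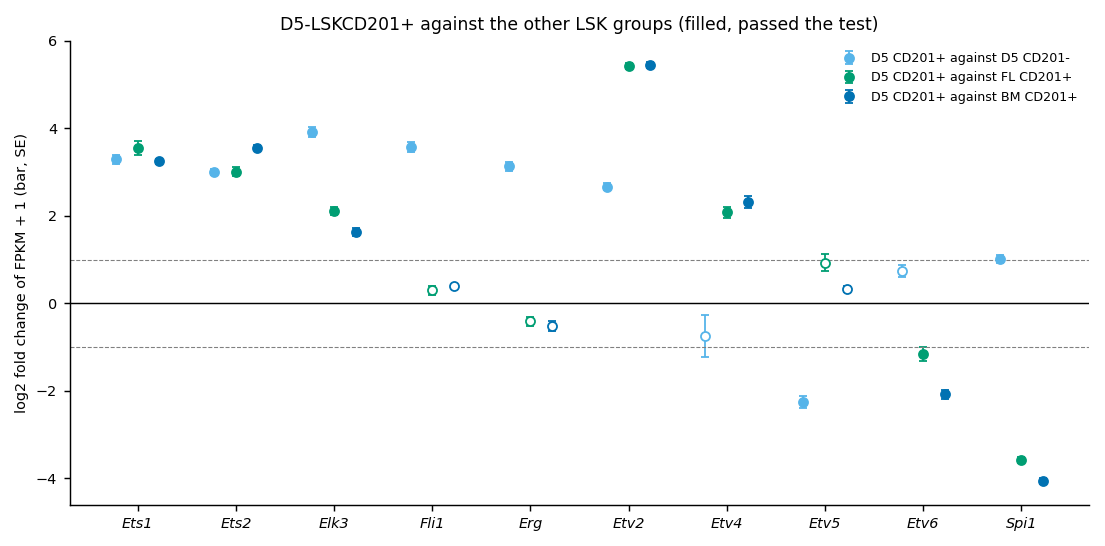
Log2 fold changes of FPKM + 1 (vertical axis) of the 10 ETS genes between D5-LSKCD201+ and each of D5-LSKCD201-, FL-LSKCD201+ and BM-LSKCD201+. Bars are SE, filled points passed the test and dashed lines mark a log2 fold change of 1 in either direction. Fli1 and Erg are far above 0 against D5-LSKCD201- and near 0 against the cells from mice, and Spi1 is near 1 against the former and at -3.58 and -4.05 against the latter.

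Between FL-LSKCD201+ and BM-LSKCD201+, limma called 0 of the 8 genes tested, while 19.1% of the 13503 genes tested were called, 7.78% higher in FL-LSKCD201+ and 11.3% lower. Of the 8, 5 had an unadjusted p under 0.05 and 5 an adjusted p under 0.05 with a smaller fold. Here and below, counts by p alone have no matching share of all genes beside them and are not set against a background. Etv6 was nearest to the threshold, with a log2 fold change of -0.94 in FL-LSKCD201+ (SE 0.15, adjusted p 0.00172). Without replicate 1 of FL-LSKCD201+ it was -1.11 and called. Spi1 differed by -0.47 (SE 0.10, adjusted p 0.00476), Elk3 by -0.49 (SE 0.11, adjusted p 0.00737), Etv5 by -0.61 (SE 0.19, adjusted p 0.0284) and Ets2 by 0.55 (SE 0.12, adjusted p 0.00706). Ets1, Fli1 and Erg overlapped between both sources, and Etv2 and Etv4 were too low to be tested. FL-LSKCD201+ also held 339 to 513 FPKM of 5 summed hepatoblast markers against 6.08 to 9.78 in BM-LSKCD201+, and 327 to 385 against 4.43 to 13.1 FPKM of 6 erythroid markers, with 0 of these markers at 0 in all libraries of either group. Myeloid markers (7 found) summed to 1648 to 1769 against 445 to 472 FPKM, with 4 of 7 tested called higher in FL-LSKCD201+, and 6 mast cell markers to 41.2 to 61.9 against 3.45 to 3.82, with 2 of 4 called higher and 3 at 0 in all libraries of BM-LSKCD201+. Their part in the result was not tested.

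The make-up of the ETS transcripts differed from group to group. Etv5 made up 67.1% ± 1.98 (SD, n = 3) of the summed FPKM of the 10 genes in mESC and 54.7% ± 0.0666 in D5-LSKCD201-. Over all ETS genes its shares were 44.3% and 30.3%. In D5-LSKCD201+ the leading gene was Ets2 with 25.8% ± 0.720, followed by Elk3 with 19.4% ± 1.53, Ets1 with 16.0% ± 0.227, Fli1 with 13.8% ± 0.438 and Etv2 with 10.6% ± 0.118. Spi1 led in the cells from mice, with 54.8% ± 3.64 in FL-LSKCD201+ and 56.8% ± 2.60 in BM-LSKCD201+, against 3.21% ± 0.157 in D5-LSKCD201+. The sum itself was 399 to 411 FPKM in D5-LSKCD201+ and 389 to 417 in BM-LSKCD201+, so that the ranges of both groups overlapped while their leading genes differed. It was 295 to 321 in FL-LSKCD201+, 132 to 141 in mESC and 98.3 to 136 in D5-LSKCD201-. Among the 10 genes, the leading gene stayed the same when any single library was left out.

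**Figure D3:**
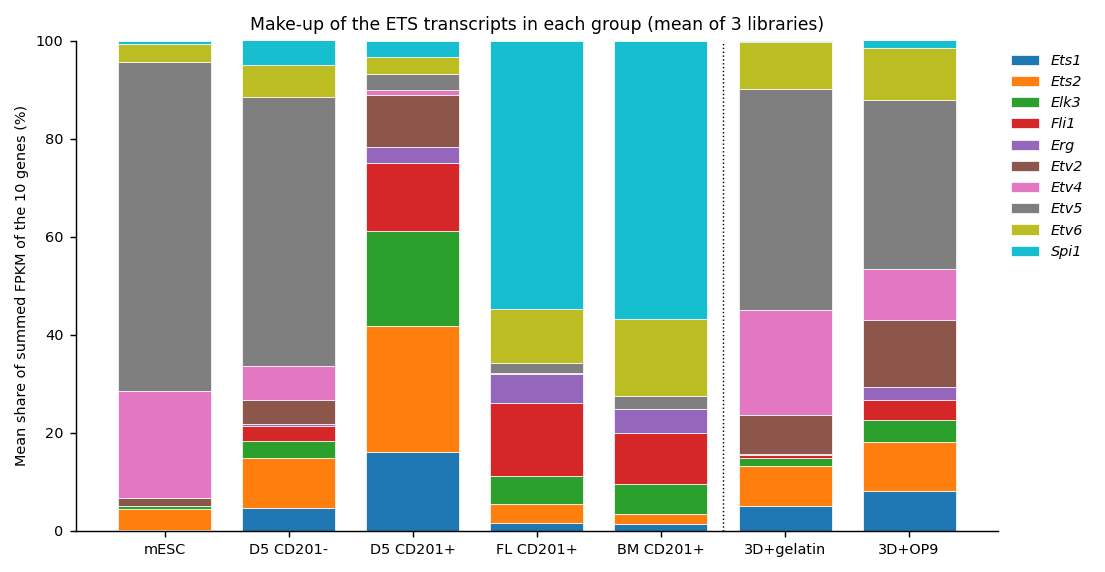
Mean share of each ETS gene in the summed FPKM of the 10 genes (vertical axis, percent, 3 libraries per bar) for the 7 groups, with the separately normalized coculture groups to the right of the dotted line. Etv5 fills the largest part of mESC, D5-LSKCD201- and both coculture groups, Spi1 that of FL-LSKCD201+ and BM-LSKCD201+, and 5 genes share most of D5-LSKCD201+.

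Of the 17 other ETS genes, 13 were tested between the day 5 populations, of which 2 were called higher in D5-LSKCD201+ and 2 lower, with a median log2 fold change of 0.24, beside the 24.7% called among all genes. Elf3, an epithelial ETS gene, fell by 4.97 on the log2 scale (SE 0.10, adjusted p 6.7e-08), from 43.2 to 0.412 FPKM. Spic, a macrophage factor, fell by 2.46 (SE 0.12, adjusted p 2.5e-06), and Fev rose by 1.40 (SE 0.17, adjusted p 2.6e-04). Each of the genes called between the day 5 populations had a mean under 0.5 FPKM in its lower group, so the filter fixed its direction. Against FL-LSKCD201+, 2 of 11 were higher and 4 lower, and against BM-LSKCD201+ 2 of 11 were higher and 5 lower, beside 34.7% and 44.7% of all genes called. Elf1, expressed across blood cells, was at 7.88 FPKM in D5-LSKCD201+, 34.0 in FL-LSKCD201+ and 51.4 in BM-LSKCD201+ (log2 fold changes -1.98 and -2.56, adjusted p 8.0e-07 and 1.5e-08).

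A list of 12 genes of endothelium and blood progenitors that are known ETV2 targets or have enhancers bound by ETS factors was read beside Etv2. All 12 were called higher in D5-LSKCD201+ than in D5-LSKCD201-, with a median log2 fold change of 4.10, where 10.8% of all genes tested were called higher. Tie1, a receptor of the angiopoietin system, rose by 5.08 (SE 0.15, adjusted p 2.8e-07), Esam, an endothelial adhesion molecule, by 4.56 (SE 0.08, adjusted p 4.5e-08) and Emcn, a sialomucin of endothelium, by 4.51 (SE 0.15, adjusted p 4.2e-07). Against FL-LSKCD201+, 10 were higher and 1 lower, and against BM-LSKCD201+ 11 were higher and 1 lower, beside 15.1% and 17.5% of all genes called higher. Kdr, the VEGF receptor, was at 137 FPKM in D5-LSKCD201+, 0.933 in FL-LSKCD201+ and 0.590 in BM-LSKCD201+ (log2 fold changes 6.16 and 6.46, adjusted p 2.7e-08 and 1.3e-08). The gene that was lower in both was Mef2c, a factor of both muscle and blood, with -1.26 and -1.62 (adjusted p 9.7e-05 and 8.7e-06). It was named after its values were seen, as are Sox7, Notch4 and Cdh5 here. Sox7 was under 0.5 FPKM in both groups from mice, Notch4 in FL-LSKCD201+ and Cdh5 in BM-LSKCD201+. The filter fixed the direction of those tests. Of these 12 genes, 8 also stand in a list of 10 endothelial markers, whose summed level was 2221 to 2254 FPKM for D5-LSKCD201+, 125 to 133 for D5-LSKCD201-, 452 to 492 in FL-LSKCD201+ and 324 to 367 in BM-LSKCD201+, with 0 markers absent from any of these groups. Their part in the result was not tested.

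The partners that bind with FLI1 and ERG in blood progenitors did not all follow them. Of 5, Lyl1 (3.34, SE 0.15, adjusted p 1.7e-06), Gata2 (2.42, SE 0.20, adjusted p 3.4e-05), Tal1 and Lmo2 were higher in D5-LSKCD201+ than in D5-LSKCD201-, where 10.8% of all genes were called higher and 13.9% lower. Runx1, needed for blood to emerge from endothelium, was lower, at 1.80 against 5.39 FPKM (log2 fold change -1.19, SE 0.15, adjusted p 3.1e-04). Lmo2 and Runx1 were named here after their values were seen, to complete the list of 5. Against FL-LSKCD201+, 0 were higher and 3 lower, and against BM-LSKCD201+ 0 were higher and 4 lower, beside 19.6% and 27.2% of all genes called lower. The largest changes against the cells from mice were those of Lmo2, at 22.8 FPKM in D5-LSKCD201+ against 407 and 1079, and Runx1, against 42.2 and 57.5 FPKM. Their log2 fold changes were -4.11 and -5.51 for Lmo2 (adjusted p 2.6e-07 and 9.1e-09) and -3.96 and -4.39 for Runx1 (adjusted p 2.4e-07 and 3.4e-08).

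Known targets of PU.1 were mostly lower in D5-LSKCD201+ than in the cells from mice. Between the day 5 populations limma called 0 of 5 tested targets, with 1 at an unadjusted p under 0.05 and 0 at an adjusted p under 0.05, where 24.7% of all genes were called. Of 6 tested against FL-LSKCD201+, 0 were higher and 6 lower, and against BM-LSKCD201+ 5 were lower, beside 19.6% and 27.2% of all genes called lower. Lyz2, lysozyme of myeloid cells, was at 1.92 FPKM against 568 in FL-LSKCD201+ and 377 in BM-LSKCD201+ (log2 fold changes -7.60 and -7.02, adjusted p 2.7e-08 and 7.4e-10). Flt3, a receptor of multipotent progenitors, was at 0.160 FPKM against 50.9 and 242 (-5.49 and -7.71, adjusted p 3.0e-08 and 7.4e-10). It was under 0.5 FPKM in D5-LSKCD201+, so the filter fixed its direction in these tests. Csf1r, the M-CSF receptor, was lower than in FL-LSKCD201+ (-2.56, adjusted p 6.2e-07) and did not differ beyond the spread from BM-LSKCD201+ (-0.01, SE 0.12, adjusted p 0.931), and was named after its values were seen. The summed level of 6 pan-leukocyte markers moved with these genes, at 53.2 to 57.2 FPKM in D5-LSKCD201+, 1189 to 1415 in FL-LSKCD201+ and 1528 to 1724 in BM-LSKCD201+. Ptprc (CD45) was at 0.305 to 0.602 FPKM in D5-LSKCD201+ and at 38.4 or more in the cells from mice. Markers of myeloid cells (7 found) summed to 8.86 to 9.90, 1648 to 1769 and 445 to 472 FPKM, and 0 of them were absent from all libraries of these groups. The PU.1 targets and these myeloid markers share Csf1r and Lyz2, and the levels of Lyz2 above are part of these sums. The part of these markers was not tested.

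**Figure D4:**
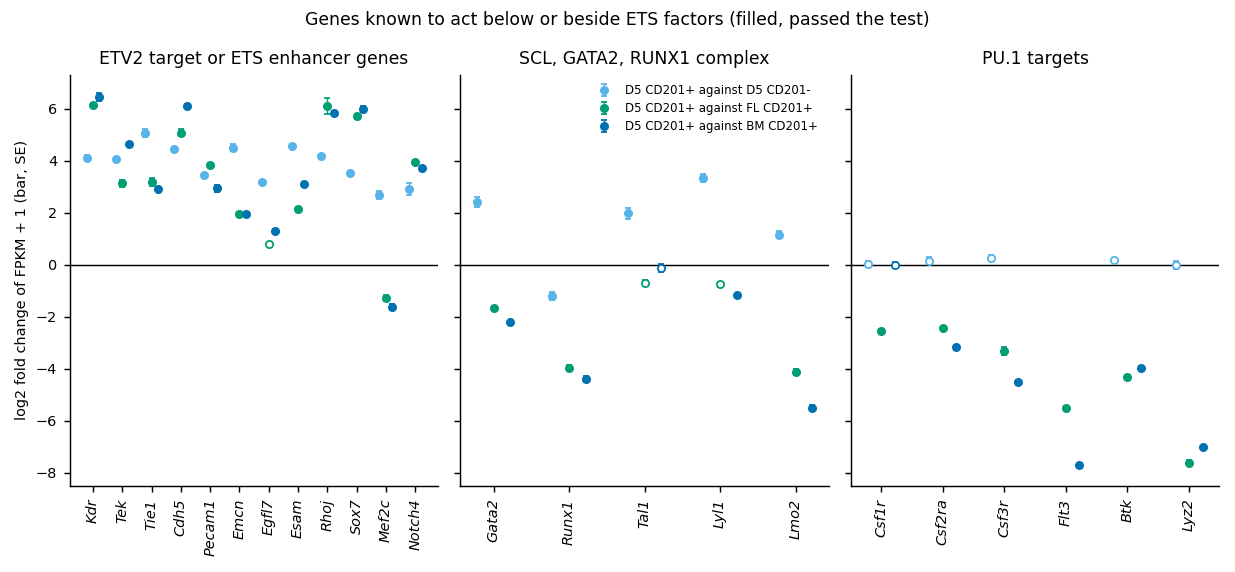
Log2 fold changes of FPKM + 1 (vertical axis, bars are SE) between D5-LSKCD201+ and D5-LSKCD201-, FL-LSKCD201+ or BM-LSKCD201+ for genes that are known ETV2 targets or have ETS-bound enhancers, partners of FLI1 and ERG, and PU.1 targets. Filled points passed the test and genes below 0.5 FPKM have no point. All genes of the first list except Mef2c lie above 0 in all 3 comparisons, and the PU.1 targets lie near 0 against D5-LSKCD201- and mostly far below 0 against the cells from mice.

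FGF and ERK response genes are often expressed with Etv4 and Etv5. Of 10, Dusp6, an ERK phosphatase, was higher in D5-LSKCD201+ than in D5-LSKCD201-, at 132 against 41.2 FPKM (log2 fold change 1.66, SE 0.09, adjusted p 5.2e-06), and 3 were lower. Fgf4, an FGF of pluripotent cells, fell by 4.48 (SE 0.10, adjusted p 1.0e-07) and Spry1, a feedback inhibitor, by 2.16 (SE 0.13, adjusted p 7.1e-06). Of the 3 lower genes, Fgf4 and Il17rd were under 0.5 FPKM in D5-LSKCD201+, so the filter fixed their direction. Il17rd was named after its values were seen. Against mESC 1 of the 10 genes was higher and 6 were lower. Of all genes tested, 10.8% were called higher and 13.9% lower in the former comparison and 19.5% and 18.1% in the latter, so that 1 higher gene of 10 is near the background between the day 5 populations.

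Genes most like each ETS gene were sought among 14457 genes by the root mean square difference of centred log2(FPKM + 1) over the 15 sorted-cell libraries. The libraries of a group are not independent points, so these differences are descriptions. Ets2 was matched by Morc4 (0.13) and Prr5l (0.21), Etv6 by Sertad1 (0.16) and Rab43 (0.17), and Elk3 by Sh3bp5 (0.17) and Abi3 (0.25). Erg had Man1a (0.22) and Tmem173 (0.24) as its nearest genes, and Etv5 had Cacnb3 and Stmn3 (both 0.28). The nearest genes of Etv2 were Nid1 (0.31), which encodes a basement membrane protein, and Madcam1 (0.37), which encodes an endothelial addressin. Ets1 was nearest to Prkcdbp (0.37) and Cmtm3 (0.38), Fli1 to F2rl3 (0.37) and Afap1l1 (0.43), Etv4 to Epha2 (0.39) and Dusp9 (0.43), and Spi1 to Neurl3 (0.49) and Hcls1 (0.51). Each gene's own spread around its mean was 1.25 to 2.66 on this scale. Within the 10 genes the closest pairs were Erg and Fli1 (0.64), Ets1 and Ets2 (0.72), Elk3 and Fli1 (0.74) and Etv4 and Etv5 (0.84). The neighbours in the genome were not the closest pairs, with 1.54 for Ets1 and Fli1 and 1.86 for Erg and Ets2.

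In day 5 total cells, 4 of the 10 genes were called higher in 3D+OP9 than in 3D+0.1% gelatin and 0 lower, while 2.62% of the 12958 genes tested were called, 2.11% higher and 0.509% lower. The median log2 fold change was 0.98 for the 10 genes and 0.01 for all genes tested. Erg was at 4.10, 4.93 and 3.33 FPKM in 3D+OP9 and 0.260, 0.130 and 0.100 in 3D+0.1% gelatin (log2 fold change 2.13, SE 0.15, adjusted p 7.2e-04). Fli1 was at 5.80, 6.83 and 5.91 against 1.01, 0.560 and 0.480 (2.10, SE 0.15, adjusted p 7.2e-04). Spi1 was at 2.18, 2.90 and 2.39 against 0.380, 0.330 and 0.0800 (1.47, SE 0.15, adjusted p 0.00241). Elk3 was at 6.54, 7.71 and 6.73 against 2.26, 1.64 and 2.53 (1.35, SE 0.14, adjusted p 0.00276). Of the 10 genes, 9 had groups that did not overlap, all but Etv5, as had 28.7% of all genes tested. The 4 called genes stood 3.26-fold (Elk3) to 25.2-fold (Erg) higher by mean FPKM. Erg and Spi1 were under 0.5 FPKM in 3D+0.1% gelatin and passed the filter only through 3D+OP9, which fixed their direction. Without the filter, 4 were called as well.

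Etv2 was at 23.5, 27.5 and 13.3 FPKM in 3D+OP9 and 12.1, 8.47 and 8.53 in 3D+0.1% gelatin. This change, 1.02 (SE 0.26), had an adjusted p of 0.0630 and was not called. Without replicate 3 of 3D+OP9 it was 1.32 with an adjusted p of 0.00297. Ets1 was at 13.6, 14.6 and 9.96 against 6.95, 5.36 and 5.99 FPKM, a change of 0.94 (SE 0.16, adjusted p 0.0152), and 1.09 and called without the same library. It was also called without replicate 1 of 3D+0.1% gelatin (1.02). Ets2 (0.58, SE 0.09, adjusted p 0.0115) and Etv4 (-0.66, SE 0.14, adjusted p 0.0369) had smaller changes, Etv6 (0.42, adjusted p 0.167) and Etv5 (-0.07, adjusted p 0.823) did not pass, and Etv5 overlapped between the groups at 46.8 to 63.3 and 49.3 to 63.7 FPKM. Etv5 had the largest share of the 10 genes in both, 34.5% ± 7.87 in 3D+OP9 and 45.1% ± 2.97 (SD, n = 3) in 3D+0.1% gelatin. Over all ETS genes its shares were 18.6% and 21.4%.

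**Figure D5:**
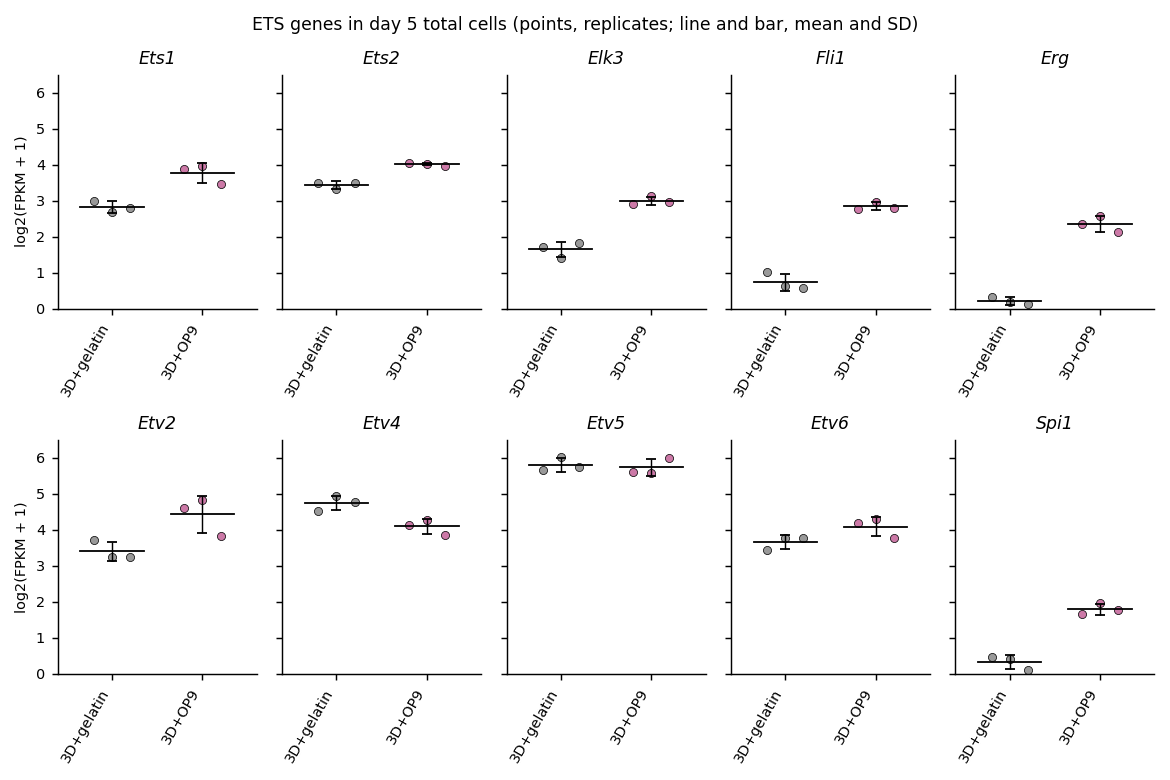
Levels of the 10 ETS genes in day 5 total cells as log2(FPKM + 1) (vertical axis) in 3D+0.1% gelatin and 3D+OP9. Points are replicates, and the line and bar are the mean and SD of 3. The groups lie apart for 9 genes, with 3D+OP9 lower for Etv4 and higher for the others, and overlap for Etv5.

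Of the 12 genes that are ETV2 targets or have ETS-bound enhancers, 10 were higher in 3D+OP9 and 0 lower, with Cdh5 (VE-cadherin, 3.49, adjusted p 7.3e-04), Tie1 (2.93, adjusted p 6.2e-04) and Pecam1 (2.65, adjusted p 0.00215) as the largest changes, the last of them level with Rhoj (2.65, adjusted p 0.00137). Among these 10 called genes, Tie1, Emcn and Mef2c were under 0.5 FPKM in 3D+0.1% gelatin, so the filter fixed their direction. Emcn and Mef2c were named here after their values were seen. Of the partners of FLI1 and ERG, 4 of 5 were higher, led by Tal1 (2.19, adjusted p 0.00279). By limma, 0 of 2 PU.1 targets tested were called (0 at an unadjusted p under 0.05), 0 of 13 other ETS genes (4 unadjusted and 1 at an adjusted p under 0.05) and 0 of 10 FGF and ERK response genes (3 and 1). Of all genes tested 2.62% were called, 2.11% higher, so that these counts of 0 are near the background. In 3D+OP9 the summed level of 10 endothelial markers was 117 to 140 FPKM against 23.1 to 39.6, that of 10 stromal markers 74.3 to 85.5 against 44.8 to 55.8, that of 6 megakaryocyte markers 8.69 to 10.6 against 0.680 to 1.01 and that of 6 erythroid markers 187 to 695 against 3.99 to 18.4. The last was highest in replicate 3 of 3D+OP9. The summed level of 8 pluripotency markers was 831, 826 and 1657 FPKM in the libraries of 3D+OP9, highest in the same replicate 3, against 1277 to 1366. The part of these cells in the ETS result was not tested.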

How the data were processed

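Per the study's methods, TRIzol RNA went into VAHTS mRNA-seq v2 libraries, whose paired reads were mapped by HISAT2 2.0.5 on GRCm38 and quantified by StringTie 1.3.3, with Cuffdiff 1.3.0 for the study's own tests. The submitters' processing notes name both GRCm38 and mm9. In the sorted-cell table, loci of 9 of the 10 ETS genes equal those of GRCm38, and the build behind the coculture table is not given in the sources used here. The authors deposited FPKM for each gene and library, in 1 table for the 6 coculture and 1 for the 15 sorted-cell libraries, normalized separately, so tests stayed within a table. The methods describe no separate pipeline for the coculture libraries. Columns were matched to samples by name. FPKM keep no read counts, so no counting interval is given, and their number of replicates and SD alone carry the precision. Of 22899 coculture genes, 3578 were blank in all libraries and left out.

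A pseudocount of 1 was added, log2 was taken, genes averaging 0.5 FPKM or more over the libraries compared were kept, and limma 3.58.1 (R 4.3.3, trend, two-sided) was fitted to each of 7 comparisons with Benjamini-Hochberg adjustment over all genes tested. The log2(FPKM + 1) scale understates the change of low genes. Simulated data had 200 genes changed by 2 on the log2 scale, drawn from genes with a mean log2(FPKM + 1) above 2. Of these, 98% were recovered in the comparison of 3D+OP9 with 3D+0.1% gelatin and 98.5% in that of D5-LSKCD201+ with D5-LSKCD201-. Recovery at lower levels was not measured. The ETS genes and the gene lists were chosen with earlier results of these data known. Named were all 10 ETS genes, at most the 3 largest called changes per list and comparison, and the 2 genes nearest in pattern to each ETS gene; other names are said to be later choices. The row symbol Itgam had 2 rows in the sorted-cell table and was left out of the lists there. Alternatives were a pseudocount of 0.1, other filters, quantile normalization, rescaled totals, the replicate number as a block, a constant prior variance, 1 fit over 5 groups, the adjusted p alone, leaving out each library and, chosen after seeing the data, averaging the closest replicate pair. Deviations of same-numbered libraries of FL-LSKCD201+ and BM-LSKCD201+ from their group means had correlations of 0.24, 0.20 and 0.16. The labels give no pairing and differently numbered libraries were not compared, so these values do not show pairing. With the replicate number as a block, 0 of the 8 tested ETS genes were called there. Python 3.11.15 with matplotlib 3.10.9 drew the figures.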

Additional observations from a re-analysis of the deposited data

How the results depend on the processing

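Over 985 alternative values of the 67 log2 fold changes of the ETS genes, 964 kept their direction and their side of the threshold, 4 lost the call, 13 gained it and 4 changed sign. With the adjusted p alone, 7 ETS genes passed in 3D+OP9 against 3D+0.1% gelatin in place of 4, and 5 in FL-LSKCD201+ against BM-LSKCD201+ in place of 0. Leaving out single libraries gave 0 to 1 in the latter. The share of all genes that passed by adjusted p alone is not given, so the counts of 7 and 5 have no background beside them. The changes of sign were in values near 0: Etv5 between the coculture groups (-0.21 to 0.04 with a library left out), Fli1 between FL-LSKCD201+ and BM-LSKCD201+ (-0.01 to 0.18) and Erg there after quantile normalization (0.01).

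The gains not given above were Ets1 in 3D+OP9 with a pseudocount of 0.1 (1.04) or rescaled totals (1.01), Ets2 in D5-LSKCD201- against mESC with a pseudocount of 0.1 (1.02), and Etv5 in D5-LSKCD201+ against FL-LSKCD201+ with a pseudocount of 0.1 (1.03), quantile normalization (1.07) or rescaled totals (1.14). With the replicate block, Etv2 was called between the coculture groups (1.02, adjusted p 0.0290), so that 5 ETS genes passed, and no other ETS call changed. The coculture libraries share only a number, with correlations of 0.18, 0.07 and 0.29. The causes were not tested.

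By quantile normalization, the all-gene median of log2 fold changes shifted by 0.1 or more in D5-LSKCD201+ against BM-LSKCD201+ (-0.23 to -0.03), FL-LSKCD201+ (-0.16 to -0.06) and D5-LSKCD201- (-0.12 to -0.02), in FL-LSKCD201+ against BM-LSKCD201+ (-0.13 to -0.02) and in D5-LSKCD201- against mESC (0.05 to -0.09). With rescaled totals it was -0.02 in D5-LSKCD201+ against FL-LSKCD201+ and -0.07 against BM-LSKCD201+. The share of higher calls among all genes went by quantile normalization from 39.1% to 49.1% in D5-LSKCD201+ against BM-LSKCD201+ and from 75.7% to 61.1% in D5-LSKCD201- against mESC, the comparisons where it moved by over 10 percentage points. Taken over all 27 ETS genes, the leading shares were 44.3% (Etv5, mESC), 30.3% (Etv5, D5-LSKCD201-), 22.4% (Ets2, D5-LSKCD201+), 40.2% (Spi1, FL-LSKCD201+), 40.7% (Spi1, BM-LSKCD201+), 21.4% (Etv5, 3D+0.1% gelatin) and 18.6% (Etv5, 3D+OP9). In 3D+OP9, Erf was close to Etv5, at 46.3, 50.7 and 28.6 against 48.0, 46.8 and 63.3 FPKM. Etv5 was far above Erf only in replicate 3. Erf was named after its values were seen. Leading genes with a library left out were checked among the 10 genes only. Without depth, levels near 0 carry no counting limit.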
